A study of Mus musculus with 32 samples.

Results

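8 genes named for the gates and reporter lines that define mouse haematopoietic stem cells (HSCs) were followed in bone marrow cells lacking the histone acetyltransferase HBO1, which is encoded by Kat7. The 8 genes, of 27179 in the table, were chosen by name, with earlier results of these data known, as were the gene lists below. Counts of listed genes called, beside the share of all genes, are therefore a description. The 8 are Ly6a (SCA-1) and Kit, which set the LSK gate, and Slamf1 (CD150) and Cd48 of the SLAM gate. Cd34 and Fcgr3 belong to the gates that divide stem cells and myeloid progenitors. Fgd5 and Ctnnal1 (alpha-catulin) were both used to build HSC reporter mice.

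LSK cells are lineage-marker-negative, SCA-1-positive, KIT-positive marrow cells, a small fraction that holds the stem cells and the multipotent progenitors. Within LSK cells, CD150 without CD48 marks long-term stem cells, CD34 appears as cells leave that state, and among KIT-positive cells without SCA-1 the level of CD34 and of the Fc gamma receptors separates granulocyte-monocyte, common myeloid and megakaryocyte-erythroid progenitors. These gates are set on surface protein, whereas the values here are messenger RNA. SCA-1 is also a protein whose gene interferons induce.

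RNA was sequenced from LSK cells and from progenitor cells of 16 adult C57BL/6 mice, each mouse giving 1 library of either kind, 32 libraries in all and 4 in each of 8 groups. All mice carried a Cre recombinase. In the CreER mice it was RosaCreERT2, expressed widely and switched on with tamoxifen. In the Mx1Cre mice it was driven by the interferon-responsive Mx1 promoter and induced with polyIC, a double-stranded RNA that evokes interferon. Knockout mice were Hbo1fl/fl, with both alleles to be deleted. Controls were Hbo1fl/+, so that their titles give 1 deleted allele, although the treatment notes call them wild type. No label describes the surface gate of the progenitors. The CreER groups held 3 females and 1 male, the Mx1Cre groups 2 of each sex.

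The gene starts of Slamf1, which had the largest knockout effect among the 8 genes, and of Cd34, which was higher in LSK cells in all 4 settings, are shown by the 250 bases before the RefSeq start on the plus strand (GRCm38.p6, chr1:171766882-171767131 and chr1:194938571-194938820). Capitals mark matches to motifs searched on both strands. A window lay before a RefSeq transcript start, which need not be the outer end of the gene. The windows of Fcgr3 and Cd48 lay inside the gene, and those of Fgd5 and Ctnnal1 across its outer end. Kit and Fcgr3 had 2 windows each. A member was counted when any of its windows matched, whereas the shares are per window. Of 7 members with a window, the GATA word GATAA was found in 1, against 22.6% of 32851 windows of that length, and the ETS word AGGAAG in 5, against 29.5%. The RUNX word TGTGGT was found in 1 (14.0% of windows). The interferon words GAAA, 2 free bases, GAAA (ISRE, 2.98% of windows) and TTCNNNGAA (GAS, 7.02%) were found in none of the 7.
Slamf1: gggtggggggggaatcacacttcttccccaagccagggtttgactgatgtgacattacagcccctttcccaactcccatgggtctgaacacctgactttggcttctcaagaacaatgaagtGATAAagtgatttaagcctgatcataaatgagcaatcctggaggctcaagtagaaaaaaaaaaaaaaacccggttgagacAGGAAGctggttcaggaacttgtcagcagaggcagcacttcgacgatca
Cd34: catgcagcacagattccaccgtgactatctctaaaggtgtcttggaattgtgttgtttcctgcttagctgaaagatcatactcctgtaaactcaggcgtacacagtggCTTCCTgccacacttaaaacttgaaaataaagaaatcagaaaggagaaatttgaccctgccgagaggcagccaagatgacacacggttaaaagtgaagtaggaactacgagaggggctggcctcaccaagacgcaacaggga
In the Slamf1 window GATAA lay 129 bases and AGGAAG 49 bases before the start. In the Cd34 window AGGAAG was read from the opposite strand, as CTTCCT, 142 bases before the start. A match describes the letters only.

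Total counts were 7275277 to 18409271 per library (median 12207444). Kat7 was at 0 to 1.69 CPM (counts scaled to library size) in the 16 knockout libraries and at 39.3 to 77.9 CPM in the 16 controls. In 2 libraries, LSK CreER knockout 2 and 3, sex-linked genes went against the labelled sex, and the differences that use them are also given without them for the genes described at length. The progenitor library of Mx1Cre control 1 had the steepest fall of counts with gene length. Per the labels each mouse gave 1 LSK and 1 progenitor library, so p-values of tests within a population cover the spread between animals. The main fit of both populations together treated the 2 libraries of a mouse as independent.

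Of the 8 genes, 3 lie near each other on chromosome 1 in mm10: Fcgr3 at chr1:171051169-171065915 (minus strand), Cd48 at chr1:171681245-171705258 and Slamf1 at chr1:171767131-171801184 (both plus strand), with 61.9 kb between Cd48 and Slamf1 and 617.1 kb between Fcgr3 and Cd48. Cd34 (chr1:194938821-194961292, plus strand) lies on the same chromosome and its exons overlap an antisense gene model, Gm16897, so reads of that pair may not have been separated. Ly6a (chr15:74994877-74998031, minus strand) shared 4.42% of its 80-base stretches with other genes, chiefly Ly6c1 and Ly6i, and Fcgr3 shared 4.85% with Fcgr2b, so these 2 levels carry some uncertainty. No 80-base stretch of Kit, Cd48, Fgd5 or Ctnnal1 was found in another gene.

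Levels of different genes were compared as CPM per kilobase of exon (RPKM). In LSK cells of CreER controls, Cd34 was the highest at 278 RPKM, followed by Ly6a at 111, Cd48 at 89.1, Kit at 79.6 and Fcgr3 at 17.9 RPKM. Ctnnal1 at 3.90, Slamf1 at 3.49 and Fgd5 at 1.30 RPKM formed a low group, in which neighbours overlapped between libraries, as Ly6a and Cd48 did. In progenitors of CreER controls, Cd48 at 76.8, Cd34 at 70.8, Kit at 70.7 and Fcgr3 at 59.8 RPKM overlapped from neighbour to neighbour, and Fgd5 was last at 0.0515 RPKM. Cd34 stood first in all 4 LSK groups and Fgd5 last in 7 of the 8 groups. In LSK cells of Mx1Cre knockouts Slamf1 was last, at 0.179 RPKM against 0.492 RPKM for Fgd5, with overlapping libraries.

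**Figure D1:**
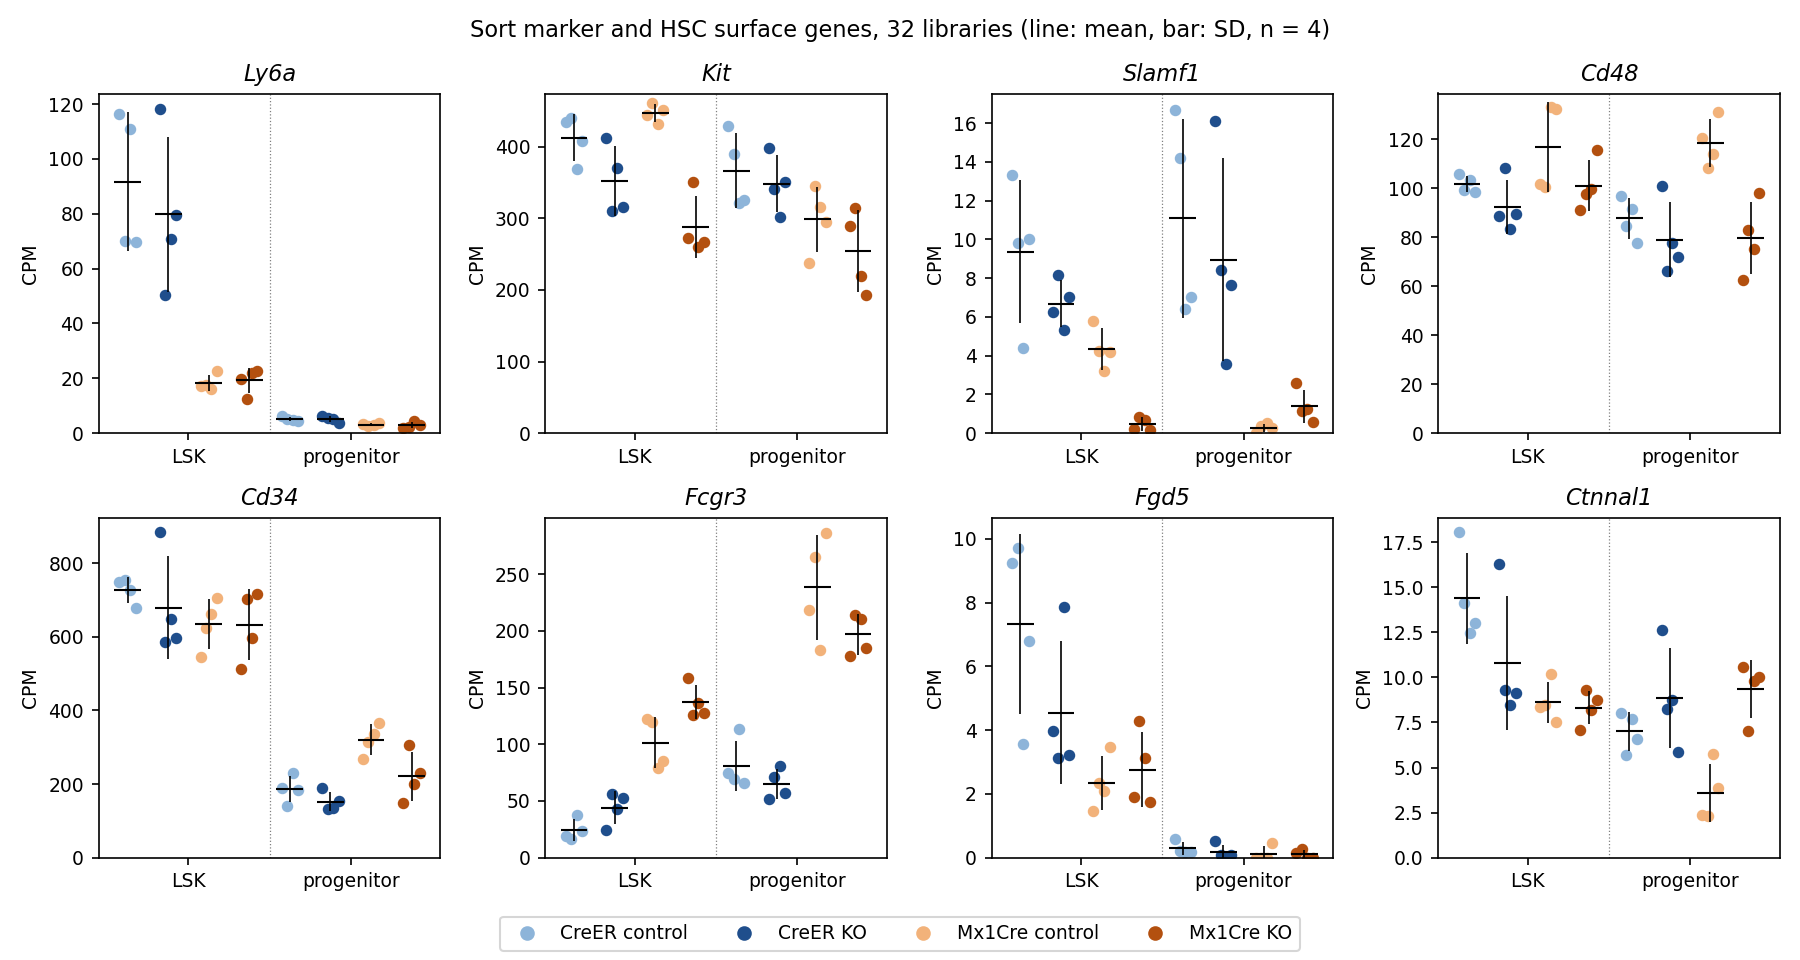
CPM (linear axes from 0, a panel per gene) of each of the 8 genes in all 32 libraries, by population and group. Points are libraries, the line is the group mean and the bar its SD (n = 4). Slamf1 falls to below 1 CPM in LSK cells of Mx1Cre knockouts and in progenitors of Mx1Cre controls, and Ly6a in LSK cells is separated by Cre line, not by genotype.

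Ly6a in LSK cells differed by Cre line, and no difference by genotype passed the test. It was at 116, 69.9, 111 and 69.6 CPM in CreER controls (91.7 ± 25.4, SD, n = 4) and at 118, 50.5, 70.7 and 79.7 CPM in CreER knockouts (79.7 ± 28.3). In Mx1Cre mice it was at 17.0, 17.6, 16.2 and 22.7 CPM in controls (18.4 ± 2.94) and at 19.7, 12.5, 22.0 and 22.8 CPM in knockouts (19.3 ± 4.67). Every CreER library was above every Mx1Cre library, whereas knockouts and controls of a Cre line overlapped. The Mx1Cre controls were 4.98-fold below the CreER controls by their means, and the log2 difference was -2.29 ± 0.25 (SE; edgeR quasi-likelihood test, Benjamini-Hochberg adjusted p = 7.45e-06). The mean knockout effect over both Cre lines in LSK cells was -0.08 on the log2 scale and did not pass that test. RNA of a sorted pool does not tell fewer cells of a type from less RNA per cell.

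In this comparison of the LSK controls 1 member was higher and 4 were lower in Mx1Cre mice, 5 of 8, where 21.7% of the 14102 genes tested were called. Cre driver and inducing agent differ together between these controls and cannot be told apart. Interferon-stimulated genes were lower in the same comparison: 29 of 33 listed genes, Ly6a not among them, were lower and 0 higher in Mx1Cre LSK controls, with a median log2 difference of -2.43, against 0.00 over all genes tested. Ifit3, an interferon-induced antiviral gene, differed by -6.06 ± 0.44 (edgeR adjusted p = 1.18e-07) and Usp18, a brake on interferon signalling, by -3.74 ± 0.28 (edgeR adjusted p = 1.64e-07). In progenitors 28 of the 33 were lower and 1 was higher, with a median of -2.63, where 25.3% of all genes were called. The lower group was the one that had received the interferon inducer. The part of interferon in the Ly6a difference was not tested.

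**Figure D2:**
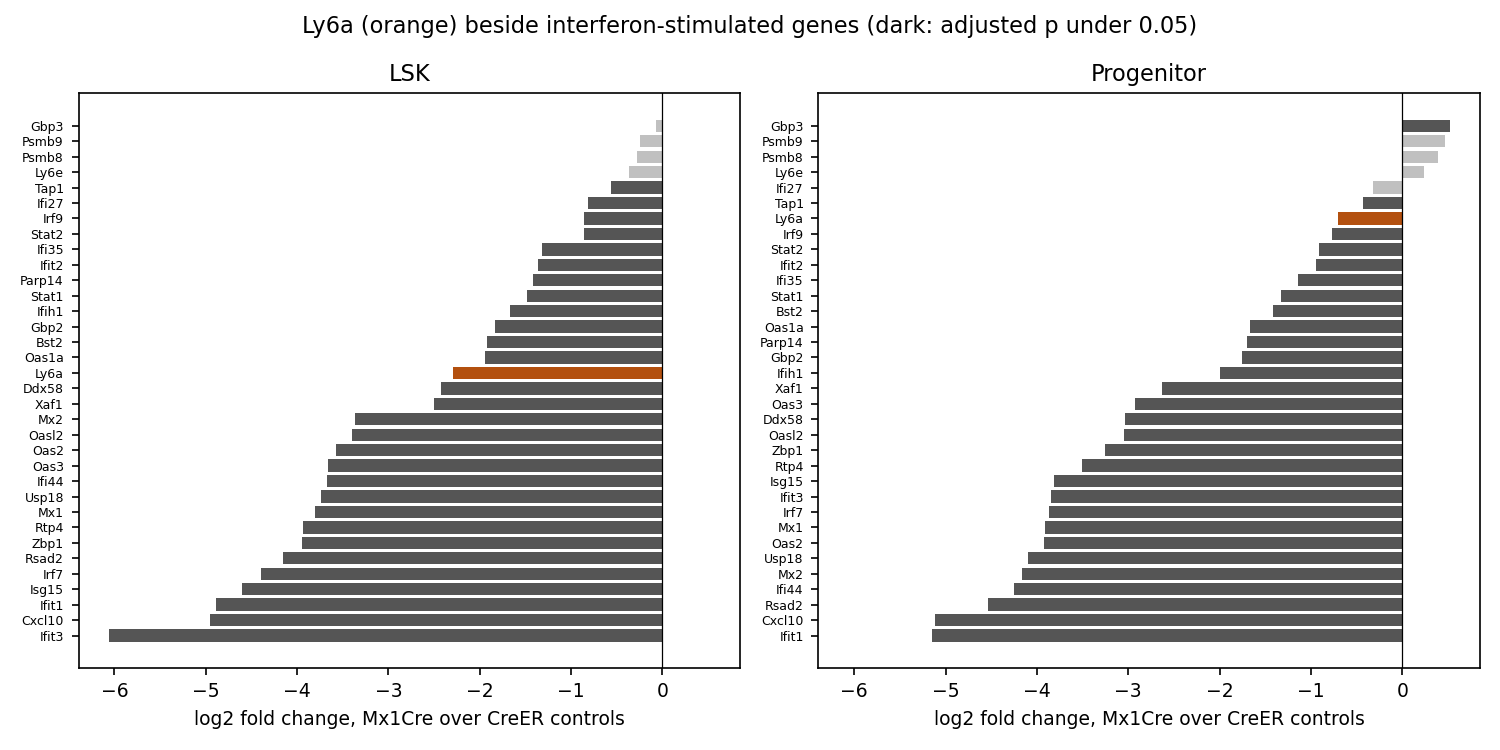
Log2 fold change of Mx1Cre over CreER controls (x axis) for Ly6a, in orange, and the 33 interferon-stimulated genes (1 bar each), in LSK cells on the left and progenitors on the right. Dark bars passed an edgeR adjusted p of 0.05, pale bars did not. Ly6a lies at -2.29 in LSK cells, where it passed, and at -0.71 in progenitors, where it did not.

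The gate that used SCA-1 was visible in the RNA. Ly6a averaged 5.15 CPM in progenitors of CreER controls and 3.15 CPM in those of Mx1Cre controls, so the LSK mean was 17.8-fold and 5.85-fold above the progenitor mean. No LSK and progenitor group overlapped. As the LSK gate was set on this protein, these ratios describe the sort and were not tested. In progenitors neither genotype (CreER knockouts 5.23 CPM, Mx1Cre knockouts 2.91 CPM) nor Cre line passed the test for Ly6a, the latter with a log2 difference of -0.71 (edgeR adjusted p = 0.0737). DESeq2 called the Cre line difference (adjusted p = 0.0471), and so did edgeR with the gene length trend removed (adjusted p = 0.0140).

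Kit, the stem cell factor receptor, was lower in knockout LSK cells of the Mx1Cre line. The 4 controls were at 445, 461, 432 and 451 CPM (447 ± 12.1, SD, n = 4) and the knockouts at 273, 351, 260 and 267 CPM (288 ± 42.7). All knockouts were below all controls. The log2 difference was -0.65 ± 0.10 (SE, edgeR adjusted p = 1.93e-04). It stayed between -0.75 and -0.60 when any 1 library of the 8 was left out. Counts fell with gene length in LSK Mx1Cre knockouts 1, 3 and 4 (slopes -0.084, -0.124 and -0.135 against the mean of all libraries). In knockout 2 and the Mx1Cre controls the slopes were 0.022 to 0.058. Over 17 alternative fits, the length trend removed among them, the Kit difference ran from -0.75 to -0.51 and kept its call. CreER controls were at 434, 439, 369 and 408 CPM (413 ± 32.3) and CreER knockouts at 413, 310, 370 and 315 CPM (352 ± 48.8). These groups overlapped and the log2 difference of -0.22 ± 0.10 did not pass the test (edgeR adjusted p = 0.269). The knockout effects of the 2 Cre lines differed by -0.42 ± 0.15, which did not pass (edgeR adjusted p = 0.0985), except without LSK Mx1Cre knockout 2, the knockout at 351 CPM (-0.52, edgeR adjusted p = 0.0141). Averaged over both lines Kit fell by 0.43 ± 0.07 (edgeR adjusted p = 3.07e-04), and without LSK CreER knockouts 2 and 3 by 0.42 ± 0.08 (edgeR adjusted p = 0.00228). The difference between the lines was then -0.48 ± 0.16 and did not pass (edgeR adjusted p = 0.153).

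Over both lines, 3 of the 8 genes changed in knockout LSK cells, Kit and Slamf1 lower and Fcgr3 higher, in a comparison that called 27.8% of 14102 genes. Within Mx1Cre LSK cells 2 of 8 were called, against 31.0% of genes. Both shares are of the order of the background. Within CreER LSK cells edgeR called 0 of 8 members, against 3.16% of genes. There 3 members had an unadjusted p under 0.05 (Kit, Fcgr3 and Ctnnal1), and DESeq2 and limma-voom also called 0. Without LSK CreER knockouts 2 and 3 none passed either, with log2 differences of -0.18 for Kit, -0.48 for Slamf1, -0.19 for Cd48, 0.67 for Fcgr3, -1.01 for Fgd5 and -0.17 for Ctnnal1. Ly6a (0.11 in place of -0.20) and Cd34 (0.03 in place of -0.09) changed sign there.

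Kit in progenitors was at 367 CPM in CreER controls, 348 in CreER knockouts, 299 in Mx1Cre controls and 254 in Mx1Cre knockouts, with overlapping libraries in each knockout comparison, and no test there passed. Of the 17 tested genes of the KIT pathway list, 3 were higher and 3 lower in knockout LSK cells over both lines, where 27.8% of all genes were called, with a median log2 difference of 0.02. The lower ones were Stat5a (-0.53 ± 0.06, edgeR adjusted p = 6.72e-06) and Stat5b (-0.29 ± 0.06, edgeR adjusted p = 0.00126), transcription factors that act downstream of the receptor, and Socs1 (-0.81 ± 0.19, edgeR adjusted p = 0.00423), a feedback inhibitor. Ptpn6, the phosphatase SHP-1, which restrains KIT signalling, was among the higher ones (0.33 ± 0.06, edgeR adjusted p = 5.87e-04). Ptpn11, the related phosphatase SHP-2, had a log2 difference of 0.01 ± 0.05.

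**Figure D3:**
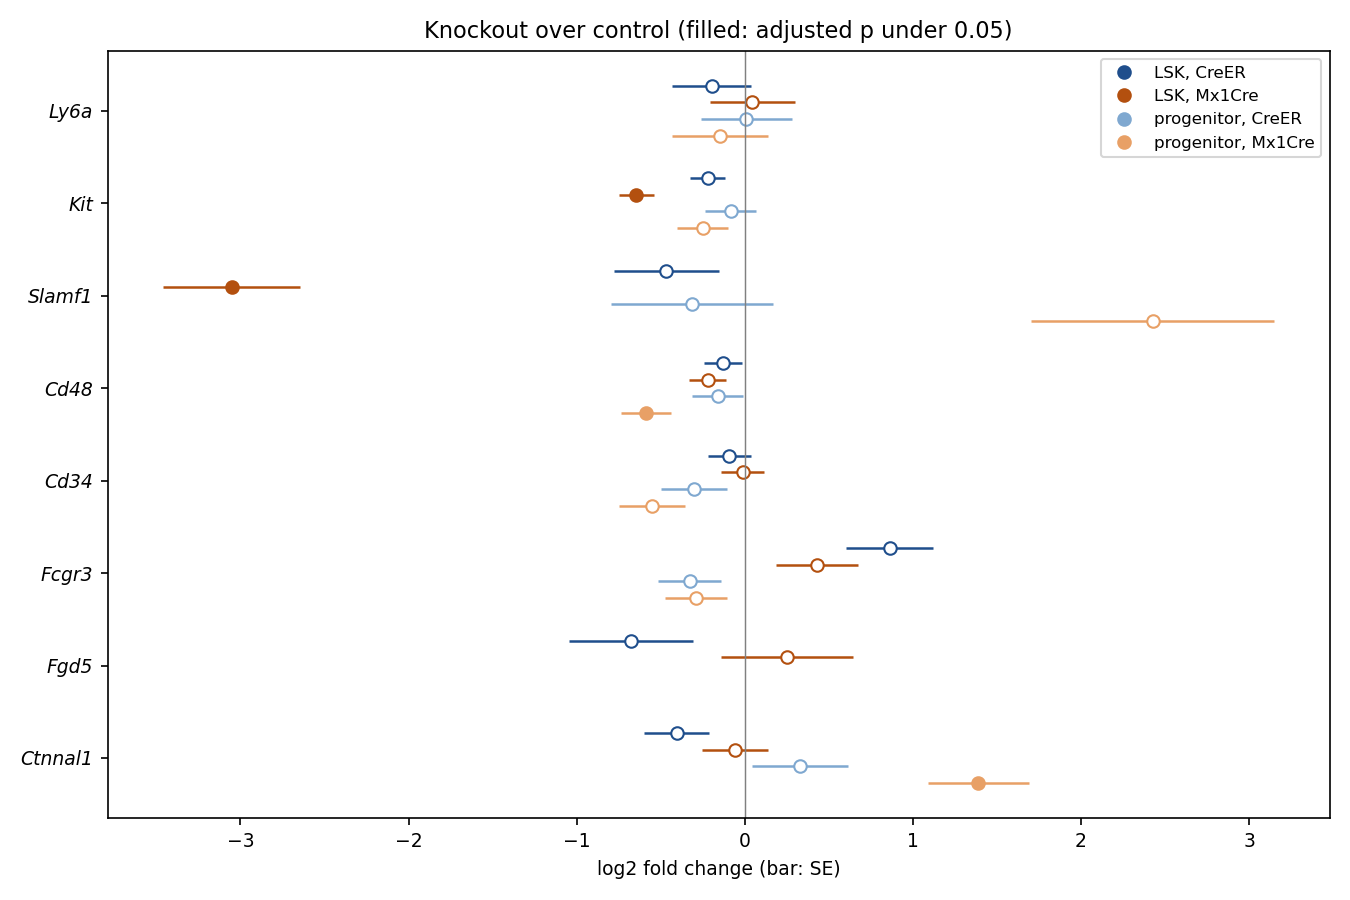
Log2 fold change of knockout over control for each gene (x axis, bars SE) in the 2 populations and 2 Cre lines. Filled points passed an edgeR adjusted p of 0.05, and Fgd5 in progenitors was not tested. Slamf1 lies at -3.05 in LSK cells and at 2.43 in progenitors of Mx1Cre mice.

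Slamf1, the SLAM receptor CD150, had the largest knockout effect of the 8 genes, and it was seen in LSK cells of Mx1Cre mice. Mx1Cre controls were at 5.80, 4.22, 3.21 and 4.18 CPM (4.36 ± 1.07, SD, n = 4) and the knockouts at 0.189, 0.858, 0.700 and 0.176 CPM (0.481 ± 0.350). The knockout mean was 11.0% of the control mean, with no overlap. Reads summed to 238 over these controls and to 29 over these knockouts. The log2 difference was -3.05 ± 0.41 (SE; edgeR adjusted p = 3.36e-05), and -3.53 to -2.81 with any 1 library left out. In CreER LSK cells the controls were at 13.3, 9.80, 4.39 and 10.01 CPM (9.38 ± 3.69) and the knockouts at 6.25, 8.15, 5.33 and 7.03 CPM (6.69 ± 1.196). The knockouts lay inside the range of the controls, and the difference of -0.47 ± 0.31 did not pass (edgeR adjusted p = 0.469). Over both lines the difference was -1.76 ± 0.26 (edgeR adjusted p = 8.53e-05). The knockout effects of the 2 lines differed by -2.59 ± 0.52 (edgeR adjusted p = 0.00744). Without LSK CreER knockouts 2 and 3, the difference over both lines was -1.77 ± 0.30 (edgeR adjusted p = 8.06e-04) and that between the lines -2.58 ± 0.58 (edgeR adjusted p = 0.0277). Slamf1 was the member called in that interaction, 1 of 8, against 4.37% of genes. Kit joined it without LSK Mx1Cre knockout 2.

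Slamf1 in progenitors was low in the Mx1Cre mice and had the opposite order there. CreER controls were at 16.7, 14.2, 6.41 and 7.05 CPM (11.1 ± 5.14) and CreER knockouts at 16.1, 8.44, 3.59 and 7.67 CPM (8.96 ± 5.23), overlapping. Mx1Cre controls were at 0, 0.344, 0.499 and 0.282 CPM, 11 reads in all, and Mx1Cre knockouts at 2.58, 1.16, 1.22 and 0.599 CPM, 67 reads in all. Each Mx1Cre knockout was above each Mx1Cre control. The log2 difference of 2.43 ± 0.72 had an edgeR adjusted p of 0.0598. DESeq2 gave an adjusted p of 0.00665, and edgeR gave 0.0441 with the length trend removed and 0.0459 without progenitor Mx1Cre knockout 4. Mx1Cre progenitor controls were below CreER ones by a log2 difference of -5.36 ± 0.68 (edgeR adjusted p = 8.44e-05). In LSK controls the same Cre line difference was -1.07 ± 0.32 (edgeR adjusted p = 0.0234). That call was lost without any 1 of LSK CreER control 1, 2 or 4 or LSK Mx1Cre control 2, 3 or 4, with edgeR adjusted p between 0.0546 and 0.0929.

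Megakaryocyte markers were lower in several of the groups in which Slamf1 was lower. CD150 is also a gate marker of megakaryocyte and early erythroid progenitors. The 7 listed megakaryocyte genes summed to 176 to 265 CPM in LSK cells of Mx1Cre controls and to 74.9 to 89.5 CPM in Mx1Cre knockouts. In that comparison 5 of 7 were lower and 0 higher, against 31.0% of all genes called. In CreER LSK cells the sum was 356 to 432 CPM in controls and 195 to 238 CPM in knockouts. There 1 of 7 was called lower and 0 higher, against 3.16% of all genes called. In progenitors it was 184 to 378 CPM in CreER controls, 103 to 220 CPM in CreER knockouts, 30.2 to 38.4 CPM in Mx1Cre controls and 54.1 to 71.4 CPM in Mx1Cre knockouts. Itga2b and Vwf stand both in this list and among the other HSC genes. None of the 7 was at 0 throughout a group. Their part in the Slamf1 result was not tested.

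Cd48, the other SLAM gate gene, varied less. In LSK cells it was at 102 CPM in CreER controls, 92.5 in CreER knockouts, 117 in Mx1Cre controls and 101 CPM in Mx1Cre knockouts, and no knockout comparison there passed (both lines: -0.17, edgeR adjusted p = 0.104). That difference passed without LSK CreER knockout 2 (-0.22, edgeR adjusted p = 0.0423) and with the length trend removed (edgeR adjusted p = 0.0214), as did the Mx1Cre difference alone with that trend removed (-0.35, 0.0159). In progenitors of Mx1Cre mice the controls were at 121, 108, 114 and 131 CPM and the knockouts at 62.8, 83.1, 75.2 and 98.0 CPM. All knockouts were below all controls, with a log2 difference of -0.59 ± 0.15 (edgeR adjusted p = 0.0280). That call was lost without progenitor Mx1Cre control 3 or 4 or progenitor Mx1Cre knockout 1, 2 or 3 (edgeR adjusted p 0.0503 to 0.102) and in a fit of those 8 libraries alone (0.117). In CreER progenitors the means were 87.7 CPM in controls and 79.1 CPM in knockouts, with overlap.

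Over both lines Cd48 fell in progenitors by 0.37 ± 0.11 (edgeR adjusted p = 0.0407). This call was lost in 11 of the 16 fits that left out 1 library, with adjusted p between 0.0583 and 0.0922. The libraries concerned were CreER controls 1 to 3, CreER knockouts 2 to 4, Mx1Cre controls 3 and 4 and Mx1Cre knockouts 1 to 3. Cd48 was 1 of 2 members called in knockout progenitors, of 7 tested, against 7.79% of 13692 genes. The other was Ctnnal1. In Mx1Cre progenitors the same 2 of 7 were called, against 6.08% of genes. In CreER progenitors edgeR called 0 of 7, against 0.168% of genes. None had an unadjusted p under 0.05 there, and DESeq2 and limma-voom also called 0. The difference between the knockout effects of the 2 lines in progenitors also had 0 of 7 called by edgeR, DESeq2 and limma-voom, against 0.299% of genes, with 2 at an unadjusted p under 0.05 (Slamf1 and Ctnnal1).

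Cd34, a sialomucin, was the most abundant of the 8 in LSK cells, and no knockout comparison there passed the test. It was at 749, 755, 727 and 679 CPM in CreER controls (728 CPM on average), at 885, 587, 649 and 597 CPM in CreER knockouts (679), at 545, 623, 662 and 704 CPM in Mx1Cre controls (634) and at 513, 703, 597 and 717 CPM in Mx1Cre knockouts (633). All 4 groups overlapped in part, and the log2 difference of the Mx1Cre knockouts was -0.01 ± 0.13. In progenitors Cd34 was at 188, 141, 229 and 184 CPM in CreER controls and at 267, 314, 336 and 365 CPM in Mx1Cre controls, higher in the latter by 0.78 ± 0.20 (edgeR adjusted p = 0.00884) with no overlap. The progenitor knockouts averaged 152 CPM (CreER) and 221 CPM (Mx1Cre). Over both lines the difference of -0.43 did not pass (edgeR adjusted p = 0.0761). DESeq2 called it (adjusted p = 0.0376), and edgeR called it without progenitor CreER control 2 (0.04996), Mx1Cre control 1 (0.0400), CreER knockout 1 (0.0492) or Mx1Cre knockout 2 (0.0212), the last also within Mx1Cre mice (-0.75, 0.0334).

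Fcgr3, the low-affinity IgG receptor whose product is part of the CD16/32 gate, was higher in knockout LSK cells and in Mx1Cre mice. In LSK cells it was at 18.7, 16.7, 37.9 and 23.8 CPM in CreER controls (24.3 CPM on average) and at 24.0, 56.3, 43.3 and 52.8 CPM in CreER knockouts (44.1). Mx1Cre controls were at 122, 119, 79.5 and 85.0 CPM (101) and Mx1Cre knockouts at 159, 126, 137 and 128 CPM (137). The Mx1Cre knockouts were all above the Mx1Cre controls and the CreER groups overlapped. Over both lines the log2 difference was 0.64 ± 0.18 (SE; edgeR adjusted p = 0.0119). Without LSK CreER knockouts 2 and 3 it was 0.54 ± 0.20 and did not pass (edgeR adjusted p = 0.0622).

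Within single lines Fcgr3 missed the threshold in LSK cells, at 0.86 ± 0.26 in CreER mice (edgeR adjusted p = 0.0755) and 0.43 ± 0.24 in Mx1Cre mice (0.190). The CreER difference passed without LSK CreER control 3 (1.17, edgeR adjusted p = 0.0127), without LSK CreER knockout 1 (1.06, 0.0112) and with the length trend removed (0.0449), and the Mx1Cre one in a fit of its 8 libraries alone (0.0390). The Cre line difference between controls was 2.08 ± 0.26 in LSK cells (edgeR adjusted p = 2.74e-05) and 1.55 ± 0.19 in progenitors (edgeR adjusted p = 6.94e-05). In progenitors Fcgr3 averaged 80.9 CPM in CreER controls, 65.1 in CreER knockouts, 238 in Mx1Cre controls and 197 CPM in Mx1Cre knockouts. The knockouts and controls of a line overlapped there, and neither comparison passed.

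Myeloid markers were higher in Mx1Cre controls, as Fcgr3 was, and in knockout LSK cells they were mixed. The 10 listed neutrophil genes summed to 4850 to 10719 CPM in LSK cells of CreER controls and to 18461 to 20891 CPM in those of Mx1Cre controls, and all 10 were called higher in the Mx1Cre controls, in LSK cells and in progenitors alike. Of the 8 listed monocyte and macrophage genes 7 were higher in either population. Of all genes, 21.7% were called in that comparison in LSK cells and 25.3% in progenitors. In knockout LSK cells over both lines, 4 of the 10 neutrophil genes were higher and 0 lower, where 27.8% of all genes were called. Their sums were 6642 to 15547 CPM in CreER and 19528 to 27574 CPM in Mx1Cre knockouts. Within single lines 1 of the 10 was higher in CreER and 0 in Mx1Cre knockouts, against 3.16% and 31.0% of all genes called. Of the 8 monocyte and macrophage genes 1 was higher over both lines, where 27.8% of all genes were called. Their sum was 428 to 960 CPM in CreER controls and 600 to 1203 CPM in CreER knockouts, but 1460 to 1910 CPM in Mx1Cre controls and 1276 to 1464 CPM in Mx1Cre knockouts, in which Fcgr3 was the higher of the 2 groups. None of these markers was at 0 throughout a group. Their part in the Fcgr3 result was not tested. Fcgr2b, the inhibitory IgG receptor that shares sequence with Fcgr3, was also higher in knockout LSK cells (0.44 ± 0.11, edgeR adjusted p = 0.00662) and in Mx1Cre LSK controls (0.96 ± 0.16, edgeR adjusted p = 3.42e-04).

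**Figure D4:**
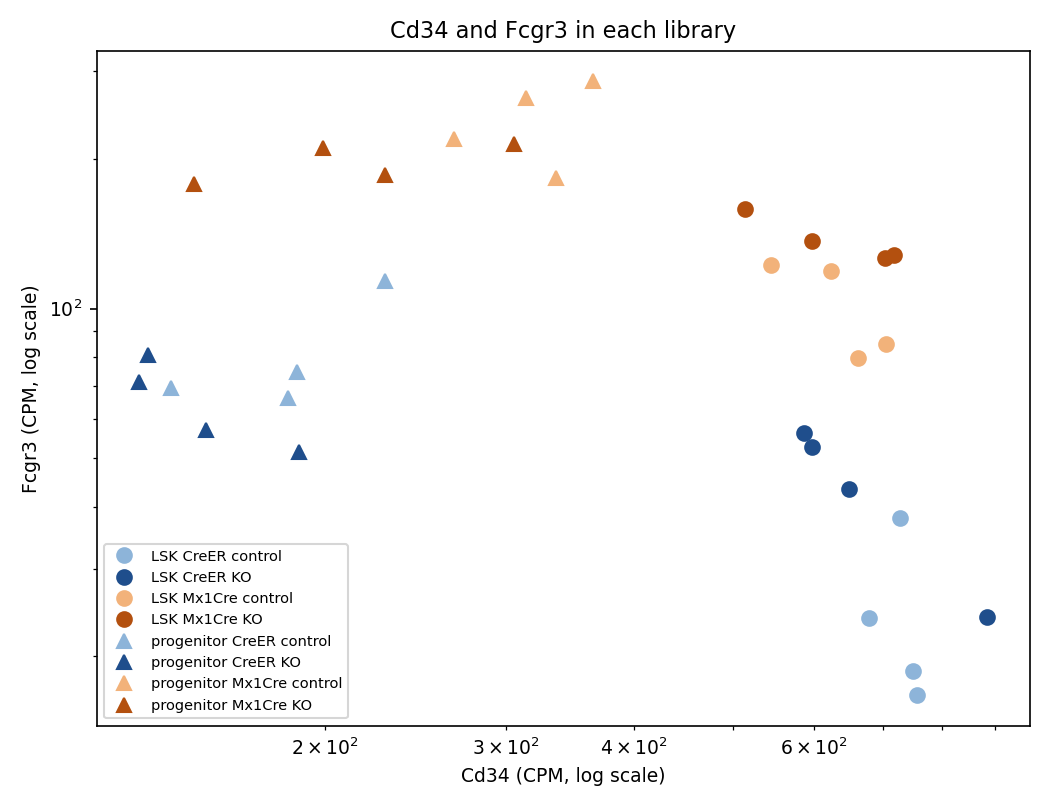
Fcgr3 CPM against Cd34 CPM (both log scales) in each of the 32 libraries. Points are libraries, circles LSK and triangles progenitors, coloured by Cre line and genotype. LSK libraries lie at 513 to 885 CPM of Cd34 and progenitor libraries at 132 to 365 CPM, and within either population the Mx1Cre libraries lie above the CreER ones in Fcgr3.

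Fgd5, a guanine nucleotide exchange factor, was found almost only in LSK libraries. It was at 9.24, 9.70, 3.55 and 6.80 CPM in LSK CreER controls (7.33 CPM on average), at 3.97, 3.13, 7.87 and 3.22 CPM in CreER knockouts (4.55), at 1.45, 2.35, 2.09 and 3.46 CPM in Mx1Cre controls (2.34) and at 1.89, 4.29, 3.11 and 1.76 CPM in Mx1Cre knockouts (2.76). In progenitors its reads summed to 14 over the 4 CreER controls, 9 over the CreER knockouts, 5 over the Mx1Cre controls and 5 over the Mx1Cre knockouts, too few to test genotype there. Knockout and control LSK libraries overlapped in both lines, and neither difference passed (CreER -0.68 ± 0.37, edgeR adjusted p = 0.353, and Mx1Cre 0.25 ± 0.39, edgeR adjusted p = 0.658). All Mx1Cre LSK controls were below all CreER LSK controls, by -1.60 ± 0.38 (edgeR adjusted p = 0.00639).

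Ctnnal1, an alpha-catenin relative, rose in knockout progenitors of Mx1Cre mice. The controls were at 2.38, 2.32, 5.74 and 3.85 CPM (3.57 CPM on average) and the knockouts at 10.6, 7.03, 9.79 and 10.04 CPM (9.36). The knockouts were all above the controls, 2.62-fold by their means, with a log2 difference of 1.39 ± 0.30 (SE; edgeR adjusted p = 0.00983). The call held when any 1 of the 8 libraries was left out (adjusted p at most 0.0333) but not in a fit of those 8 libraries alone (0.0717). CreER progenitors were at 8.01, 5.70, 7.71 and 6.56 CPM in controls and at 12.6, 8.25, 8.72 and 5.89 CPM in knockouts, which overlapped (0.33 ± 0.29, edgeR adjusted p = 0.969). Over both lines the rise was 0.86 ± 0.21 (edgeR adjusted p = 0.0160).

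The Ctnnal1 controls also differed by Cre line. In LSK cells they were at 18.04, 14.1, 12.4 and 13.0 CPM in CreER and 8.34, 8.44, 10.2 and 7.51 CPM in Mx1Cre mice, a log2 difference of -0.71 ± 0.19 (edgeR adjusted p = 0.0146). Without LSK CreER control 1 that was -0.58 (edgeR adjusted p = 0.0566). In progenitors it was -0.99 ± 0.30 (edgeR adjusted p = 0.0229), lost without progenitor CreER control 1 or 3 or Mx1Cre control 1 or 2 (edgeR adjusted p 0.0508 to 0.0654) and in a fit of the 8 libraries alone (0.0629). LSK knockouts averaged 10.8 CPM in CreER and 8.32 CPM in Mx1Cre mice and did not pass the test. Without LSK CreER knockout 1, at 16.3 CPM, the differences of -0.68 in CreER mice (edgeR adjusted p = 0.0214) and -0.37 over both lines (0.0200) did.

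Cre line, in progenitor controls, called 5 of the 7 members tested, against 25.3% of genes: Cd48, Cd34 and Fcgr3 were higher and Slamf1 and Ctnnal1 lower in Mx1Cre mice. For Cd48 the difference was 0.43 ± 0.15 (edgeR adjusted p = 0.0453). That call was kept in 1 of the 8 fits that left out a library, the one without progenitor Mx1Cre control 2, and the others gave 0.0610 to 0.125. With the length trend removed it was 0.25 (edgeR adjusted p = 0.217). The call was also lost with sex as a covariate (0.42, edgeR adjusted p = 0.0712), with a replicate block (0.07) and without the count filter (0.0623).

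LSK cells were set against progenitors of the same mice within each genotype and Cre line, for the 6 genes that are not LSK gate genes. The main fit held no term for the mouse, so the 2 libraries of a mouse were treated as independent. Fits with the mouse as a block are given where they changed a call. Cd34 was higher in LSK cells in all 4 settings. The log2 difference was 1.97 ± 0.18 in CreER controls (edgeR adjusted p = 5.22e-09), 1.00 ± 0.17 in Mx1Cre controls (1.13e-04), 2.16 ± 0.18 in CreER knockouts (7.48e-10) and 1.55 ± 0.17 in Mx1Cre knockouts (2.61e-07). For Fgd5 the log2 differences were 4.57 ± 0.65, 4.24 ± 0.77, 4.58 ± 0.69 and 4.49 ± 0.77 in the same order. They are given as a description, since Fgd5 entered this fit through the LSK libraries where it is high, and their size depends on few progenitor reads. Without progenitor Mx1Cre control 4, the only one of its group with Fgd5 reads, the second value was 7.86.

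Fcgr3 was lower in LSK cells of controls, by -1.73 ± 0.24 in CreER (edgeR adjusted p = 9.88e-06) and -1.22 ± 0.23 in Mx1Cre mice (4.55e-04). In the knockouts the differences were -0.55 ± 0.24 (edgeR adjusted p = 0.0954) and -0.49 ± 0.23 (0.175). With the mouse as a block these passed (CreER -0.60, edgeR adjusted p = 0.00951, and Mx1Cre -0.50, 0.0339), and the Mx1Cre one also in a fit of its 8 libraries alone (-0.51, 0.0124). Ctnnal1 was higher in LSK cells of controls, by 1.03 ± 0.25 in CreER (edgeR adjusted p = 0.00342) and 1.31 ± 0.26 in Mx1Cre mice (5.64e-04), and did not pass in either knockout group (0.28 ± 0.24 and -0.14 ± 0.24).

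Slamf1 passed in 1 of the 4 settings, the Mx1Cre controls, where it was higher in LSK cells by 4.05 ± 0.62 (edgeR adjusted p = 2.58e-05). The values elsewhere were -0.25 ± 0.42 in CreER controls, -0.42 ± 0.42 in CreER knockouts and -1.47 ± 0.57 in Mx1Cre knockouts (edgeR adjusted p = 0.0897; DESeq2 0.0362). Cd48 passed in none. Its largest difference, 0.37 ± 0.13 in Mx1Cre knockouts (edgeR adjusted p = 0.0602), passed with the mouse as a block (0.0268), with limma-voom (0.0443), with the length trend removed (0.0232) and without LSK knockout 1 (0.0497) or progenitor knockout 4 (0.0159) of that line. In CreER knockouts it passed without progenitor knockout 1 (0.37, edgeR adjusted p = 0.0462). Kit, as a description, differed by 0.17 in CreER controls and 0.60 in Mx1Cre controls.

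Leaving Fgd5 aside, 3 of the other 5 genes were called in CreER controls (17.9% of 14459 genes), 4 of 5 in Mx1Cre controls (28.2%), 1 of 5 in CreER knockouts (21.8%) and 1 of 5 in Mx1Cre knockouts (14.6%). With the mouse as a block the last 2 counts were 2 and 3. Without LSK CreER knockouts 2 and 3, Cd34 differed by 2.32 ± 0.20 in CreER knockouts (edgeR adjusted p = 9.19e-09) and Fcgr3 by -0.72 ± 0.30 (edgeR adjusted p = 0.117).

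**Figure D5:**
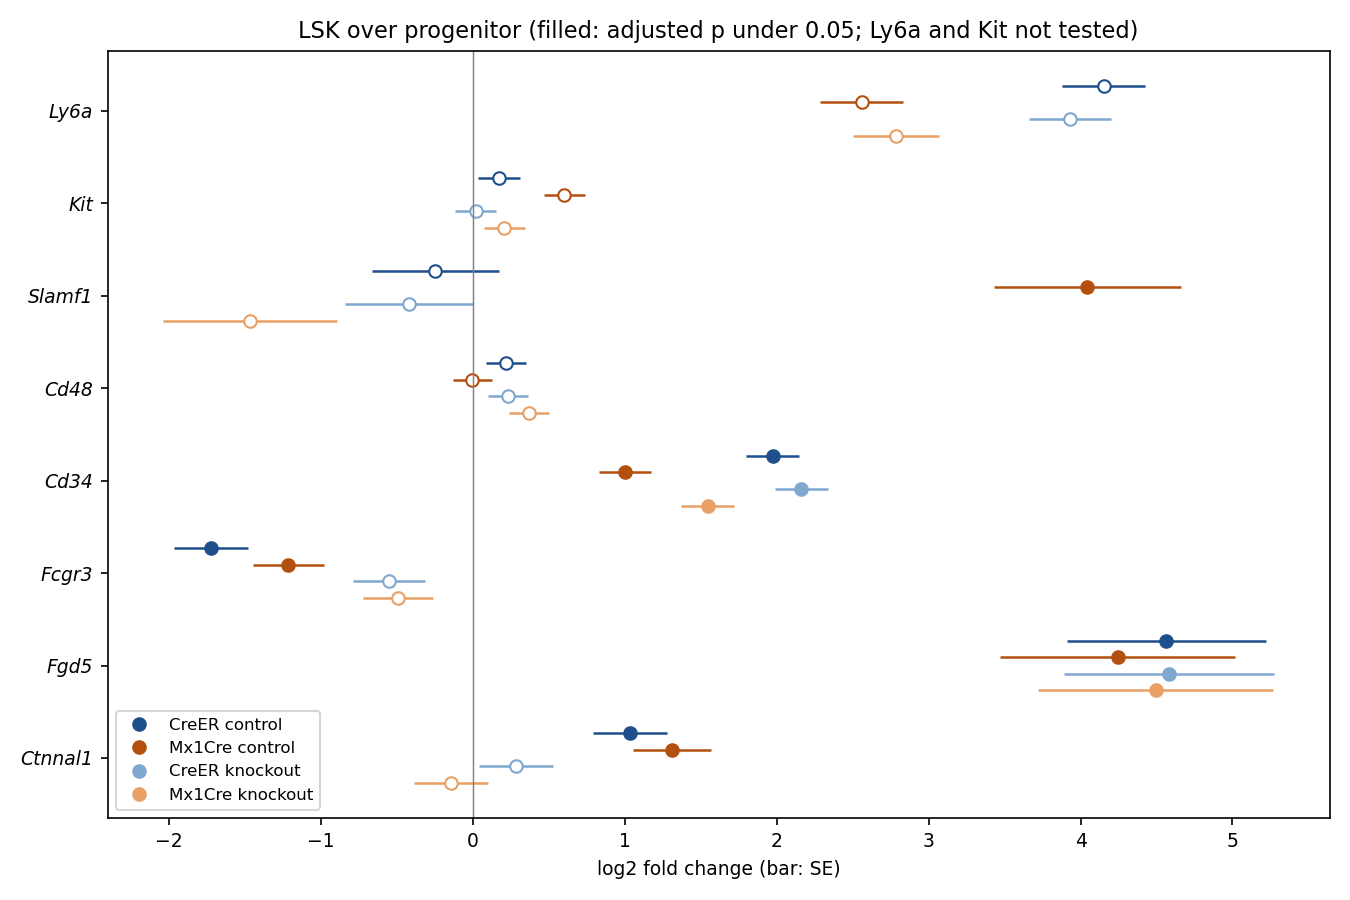
Log2 fold change of LSK over progenitor libraries (x axis, bars SE) in the 4 combinations of Cre line and genotype. Filled points passed an edgeR adjusted p of 0.05. Ly6a and Kit are LSK gate genes and are drawn without a test. Fgd5 entered the fit through its LSK libraries, so its filled points are a description only. Cd34 and Fgd5 lie to the right in all 4, and Slamf1 does so at 4.05 in the Mx1Cre controls.

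The knockout effect itself differed between the populations for 3 of the 8 genes, against 2.52% of 14459 genes. The LSK effect minus the progenitor effect, over both lines, was -2.84 ± 0.52 for Slamf1 (edgeR adjusted p = 0.00261), -1.10 ± 0.25 for Ctnnal1 (0.0123) and 0.95 ± 0.23 for Fcgr3 (0.0266). Slamf1 was lower with the knockout in LSK cells, Ctnnal1 higher in progenitors and Fcgr3 higher in LSK cells. For Slamf1 the Mx1Cre effects were -3.05 in LSK cells and 2.43 in progenitors. The CreER effects were -0.47 and -0.31. Of these only the LSK Mx1Cre effect passed the edgeR test. Reads summed to 29 in LSK Mx1Cre knockouts and to 11 in Mx1Cre progenitor controls. The difference between populations was not tested within a single line. Without LSK CreER knockouts 2 and 3, Slamf1 alone of the 3 was still called, and Ctnnal1 (-0.998, edgeR adjusted p = 0.0598) and Fcgr3 (0.83, 0.102) were not. The Fcgr3 call was also lost without LSK CreER control 2 (edgeR adjusted p = 0.0504), LSK CreER knockout 2 (0.0511), progenitor CreER control 3 (0.0588) or progenitor Mx1Cre knockout 1 (0.0528). With the mouse as a block Cd34 was called too (0.37, edgeR adjusted p = 0.0403) and the number of genes called rose from 364 to 769.

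Of 25 further genes used to mark or report HSCs, 22 were tested in LSK cells. In knockouts over both lines 13 were lower and 1 higher, against 27.8% of all genes called. Their median was -0.77 against 0.01 over all genes. Itga2b (CD41) was lower by -1.27 ± 0.08 (edgeR adjusted p = 1.28e-08), Tgm2, a transglutaminase, by -1.52 ± 0.15 (edgeR adjusted p = 1.22e-06) and Tek, the angiopoietin receptor, by -2.39 ± 0.26 (edgeR adjusted p = 4.03e-06). Itga2b averaged 159 CPM in Mx1Cre LSK controls and 54.9 CPM in Mx1Cre LSK knockouts, and 309 and 154 CPM in the CreER ones. In progenitors 4 of 19 tested were lower and 0 higher, against 7.79% of all genes called. In CreER controls 14 of 22 were higher in LSK cells than in progenitors and 0 lower, where 17.9% of all genes were called. Since 19 of the listed genes passed the count filter in progenitors alone, some entered that fit through their LSK libraries, as Fgd5 did. The count is therefore a description, as are the values of Hlf (3.501 ± 0.253) and Mecom (3.87 ± 0.36), both transcription factors of stem cells.

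Of 15 surface genes of progenitor gates, 14 were tested in LSK cells, with 4 higher and 3 lower in knockouts over both lines, against 27.8% of all genes called, and a median of 0.07 against 0.01 over all genes. Cd24a, a glycoprotein of maturing cells, was higher (0.90 ± 0.07, edgeR adjusted p = 9.79e-08). Epor, the erythropoietin receptor, was lower (-1.22 ± 0.23, edgeR adjusted p = 7.36e-04), as was Flt3, the cytokine receptor of lymphoid-primed progenitors (-0.54 ± 0.14, edgeR adjusted p = 0.00723). In progenitors 2 of 14 were higher and 2 lower, against 7.79% of all genes called.

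Among 10877 genes, those whose log2 CPM was most alike over the 32 libraries were, for Slamf1, F2r (Pearson r = 0.957), Dapk1 (0.956) and Adgrl2 (0.949). F2r, the thrombin receptor, averaged 50.1 CPM in Mx1Cre LSK controls and 14.3 CPM in Mx1Cre LSK knockouts, and 173 CPM in CreER and 7.30 CPM in Mx1Cre progenitor controls. For Ly6a they were Il18 (0.937), Lck (0.935) and Casp12 (0.933), for Kit Uhrf2 (0.952), Efnb1 (0.927) and Mink1 (0.925), and for Cd34 Gpr171 (0.971), Thsd1 (0.968) and Adgrl4 (0.962). For Fcgr3 they were Mgl2 (0.974), Lta4h (0.968) and Hp (0.964), and for Fgd5 Clnk (0.949), Ralgds (0.948) and Rbpms (0.944). Cd48 (Fut7, 0.840, Camk1, 0.809, and H2-DMb1, 0.806) and Ctnnal1 (Treml2, 0.819, Cobll1, 0.815, and Myl6b, 0.811) had looser neighbours. The 32 points share mice, Cre lines and populations, so these values describe likeness over these libraries and carry no test.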

How the data were processed

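Counts of reads per gene were deposited by the authors as 1 table of 27179 genes with an exon length per gene, and as 1 table per library, identical to its column in all 32. Per the labels' protocols 50 ng of RNA went into paired-end libraries read at 80 bases, and per the submitters' processing notes featureCounts and mm10 were used; no source used here names the aligner, the versions, the annotation or the strand setting. The table paired 25275 identifiers with a symbol, and the other 1904 held 3.92% of counts. Other per-gene values (the exon length) were used as deposited, to give RPKM.

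CPM values are scaled by TMM factors over all 32 libraries. Tests were edgeR 4.0.16 quasi-likelihood F tests in R 4.3.3 on the counts, after filterByExpr (minimum count 10), with Benjamini-Hochberg adjustment over all genes and a threshold of 0.05. Comparisons of genotype and Cre line used the 16 libraries of a population, and LSK against progenitors all 32, 15 comparisons in all. The main fit of all 32 held no term for the mouse. Alternatives were DESeq2 1.42.0, limma-voom (limma 3.58.1), other filters and scalings, sex, a gene length trend, replicate blocks, fits of 8 libraries and leaving libraries out. The tests were checked on simulated counts. LSK and progenitor libraries with the same number come from 1 mouse per the labels; over the 16 mice their deviations from the group means correlated at -0.0942 to 0.426 (median 0.248), over 0.1 in 14, the exceptions being CreER knockouts 2 and 3. Between replicates of a group chi-square per gene was at least 4.82, so no library was a copy of another.

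Some listed genes are not reported here by name. The members and lists were chosen with earlier results of these data known. All 8 members were named throughout, with up to 4 genes per list by lowest adjusted p and, per member, the 3 genes of highest correlation over libraries. Promoter windows come from RefSeq (GRCm38.p6), which matched 7 members, not Ly6a; shared 80-base stretches were counted in transcripts of the GENCODE annotation. Other marker lists, in knockout LSK cells over both lines, had 2 higher and 1 lower (lineage cocktail, 9 tested), 0 and 1 (B cells, 6), 1 and 1 (T and NK cells, 6), 3 and 4 (erythroid cells, 9), 0 and 5 (mast cells and basophils, 6), 0 and 2 (dendritic cells, 6), 0 and 2 (endothelial cells, 4) and 0 and 1 (stromal cells, 1). In that comparison 27.8% of all genes were called.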

Additional observations from a re-analysis of the deposited data

Results flagged for a closer look

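In 64 combinations of a member and a group, 4 held a library far from the other 3 by Dixon's criterion; chance flags about 1 in 20 groups. Kit was at 351 CPM in LSK Mx1Cre knockout 2, above the other knockouts of its group. Ctnnal1 was at 16.3 CPM in LSK CreER knockout 1, above the rest of its group. Fgd5 was at 0.599 CPM in progenitor CreER control 1 and at 0.469 CPM in progenitor Mx1Cre control 4, each from a handful of reads.

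For 4 member effects a test of the difference between groups passed the threshold. The Slamf1 knockout effect in LSK cells differed between Mx1Cre and CreER mice by -2.59 on the log2 scale. Between LSK cells and progenitors the knockout effect, as a mean over both lines, differed by -2.84 for Slamf1, by -1.10 for Ctnnal1 and by 0.95 for Fcgr3.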

How the results depend on the processing

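Each comparison was recomputed with another test, filter, scaling, covariate, block or set of libraries, and counts below are genes called by edgeR unless another test is named. In knockout CreER LSK cells 445 genes became 889 with DESeq2, 231 in a fit of those 8 libraries alone and 33 without LSK CreER knockouts 2 and 3; leaving out 1 library gave 159 (CreER control 2) to 714 (CreER knockout 1), and members called went from 0 to 1 with the length trend removed and 0 to 2 with 1 library left out. The LSK difference between the lines' effects moved from 616 to 1229 with DESeq2, 310 without those 2 libraries and 319 (Mx1Cre knockout 3) to 2556 (Mx1Cre knockout 2) with 1 left out, with 1 to 2 members. For LSK Cre line, members called were 3 to 5 of the main 5 with 1 library left out.

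In knockout progenitors over both lines, 1067 genes ranged from 775 to 1794 (the latter without Mx1Cre control 1) with 1 left out, and the 2 members became 1 without the count filter, 1 with a replicate block and 1 to 3 with 1 left out. In CreER progenitors 23 genes became 183 with DESeq2, 36 with limma-voom, 67 with the length trend removed, 158 in the fit alone and 7 to 27 with 1 left out. In Mx1Cre progenitors 833 became 1264 with DESeq2, 344 alone and 553 to 1541 with 1 left out, and the 2 members became 1 with a replicate block, 0 alone and 1 to 3 with 1 left out. The progenitor difference between lines moved from 41 to 120 (DESeq2), 19 (limma-voom) and 25 to 60 with 1 left out. For progenitor Cre line, 3458 became 2297 alone, and the 5 members became 3 to 4 with 1 left out.

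For LSK against progenitors, Mx1Cre controls moved from 4075 genes to 1279 alone and 2608 (without progenitor Mx1Cre control 1) to 4758 with 1 left out. Members called in Mx1Cre knockouts went from 2 to 4 with the mouse as a replicate block. The difference of knockout effects between populations moved from 364 to 611 (DESeq2), 769 (mouse block), 148 without LSK CreER knockouts 2 and 3, with 1 member, and 186 to 640 with 1 left out. A mouse block with LSK CreER knockouts 2 and 3 exchanged, chosen after seeing the data, gave 877 genes there and 4 members in the Mx1Cre knockouts; that exchange raised their correlations with the progenitor libraries to 0.351 and 0.0779. Kit between LSK and progenitor CreER knockouts (main value 0.018) ranged from -0.062 to 0.088 with 1 library left out, and was -0.062 without LSK CreER knockout 1, -0.013 without LSK CreER knockout 3 and -0.046 without progenitor CreER knockout 3. The cause of these shifts was not tested.

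Replicate numbers shared by knockouts and controls did not pair the mice: correlations ran from -0.279 to 0.433, over 0.1 in 8 of 16, with 7 libraries closest to their own number. Of 2428 refitted values of single members, 2267 kept sign and side of the threshold, 51 lost and 36 gained the call, and 74 changed sign, none of them called before or after. Depth limits Fgd5 in progenitors, and Slamf1 in progenitors of Mx1Cre mice and in LSK cells of Mx1Cre knockouts.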

Other observations

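Of 32 listed relatives of the 8 genes, 27 were tested in LSK cells, and 4 were higher and 4 lower in knockouts over both Cre lines, with a median log2 difference of 0.08, a share near the 27.8% of all genes called. Pdgfrb, the platelet-derived growth factor receptor of the same receptor class as Kit, was lower (-1.50 ± 0.15, edgeR adjusted p = 1.53e-06). In the SLAM family, Ly9 (0.31 ± 0.07, edgeR adjusted p = 0.00225) and Cd244a, the receptor of CD48 (0.45 ± 0.13, edgeR adjusted p = 0.0166), were higher in knockout LSK cells, in which Slamf1 was lower. Cd244a was also higher in knockout progenitors (0.81 ± 0.14, edgeR adjusted p = 0.00126), in which Cd48 was lower. Ctnna1, the alpha-catenin related to Ctnnal1, was lower in knockout LSK cells (-0.27 ± 0.07, edgeR adjusted p = 0.00561), and Fgd2, related to Fgd5, was lower in knockout progenitors (-1.07 ± 0.20, edgeR adjusted p = 0.00267). In the LSK controls 11 of the 27 were higher and 3 lower in Mx1Cre than in CreER mice, against 21.7% of all genes called. Among them Ly6c2, a neighbour of Ly6a in its gene family and a monocyte marker, averaged 182 CPM in CreER and 625 CPM in Mx1Cre LSK controls, the opposite order to Ly6a.

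With the knockout, 8 of 33 interferon-stimulated genes were lower and 0 higher in LSK cells over both lines, where 27.8% of all genes were called, so that the count is no more than the background. Within Mx1Cre LSK cells 4 were lower and 1 higher, where 31.0% of all genes were called. In progenitors over both lines 10 of 33 were lower and 0 higher, where 7.79% of all genes were called. Irf9, a subunit of the interferon-activated transcription factor complex, fell by 0.46 ± 0.08 in LSK cells (edgeR adjusted p = 5.21e-04) and by 0.44 ± 0.10 in progenitors (edgeR adjusted p = 0.0115). Tap1, a peptide transporter of antigen presentation, fell by 0.48 ± 0.08 in LSK cells (edgeR adjusted p = 4.41e-04). Ly6a had a log2 difference of -0.08 in that LSK comparison and did not pass.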
